A study of Homo sapiens with 5 samples.

Results

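HOX genes encode homeodomain transcription factors, and MEIS1 and PBX3 encode homeodomain cofactors that bind DNA together with them. This section describes the chromatin contacts of the 6 loci that hold HOXA9 and HOXA10, HOXB4 and HOXB7, HOXC4 and HOXC10, HOXD9, MEIS1 and PBX3 in HL60, an established human acute myeloid leukaemia line. The 9 genes were placed in fixed bins of 500 kb by their position on hg19. HOXA is at 27.0 to 27.5 Mb of chromosome 7, HOXB at 46.5 to 47.0 Mb of chromosome 17 and HOXC at 54.0 to 54.5 Mb of chromosome 12. HOXD takes 2 bins, from 176.5 to 177.5 Mb of chromosome 2, called here the first and the second HOXD bin. MEIS1 is at 66.5 to 67.0 Mb of chromosome 2 and PBX3 at 128.5 to 129.0 Mb of chromosome 9. These are 7 of the 6083 bins of the autosomes and chromosome X, and with 5 bins on either side the 6 windows hold 67 bins. All 67 were among the 5630 bins with enough contacts in every matrix to be kept, and percentiles below are taken over those.

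The study measured contacts across the genome by Hi-C, in which crosslinked chromatin is cut with HindIII, ligated in solution and sequenced as pairs of joined fragments. HL60 cells had been treated with all-trans retinoic acid (ATRA, 1 library), treated with the phorbol ester TPA (2 libraries) or left untreated (2 libraries), and the labels give neither dose nor time. The 2 libraries of TPA and the 2 of untreated cells were each merged into 1 matrix by the authors, so every condition is a single measurement with no spread between replicates, no test was possible, and treatment and library cannot be told apart. ATRA leads HL60 toward granulocyte-like cells and TPA toward macrophage-like cells, but a contact matrix holds no expression value against which the state of the cells or the activity of these genes could be checked. All groups are 1 aneuploid line with rearranged chromosomes, so the order of loci on hg19 need not be their order in these cells. The matrices held 9632300 contacts in ATRA, 10423501 in TPA and 10628045 in untreated cells. Intervals in parentheses are exact 95% limits from counting alone, and read pairs that are not independent make them too narrow.

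HOX genes lie in 4 clusters and are used along the body axis in the order in which they lie on the chromosome. In blood, HOXA and HOXB genes are active in stem cells and early progenitors and are turned down as cells mature, while in leukaemia HOXA9 with MEIS1 and PBX3 maintains self-renewal. HOXA9 and HOXA10 belong to the posterior part of their cluster. HOXB4 is known for expanding blood stem cells, and HOXC4 is its paralogue in another cluster. HOXC10 and HOXD9 are paralogues of HOXA10 and HOXA9, and HOXB7 has been linked to growth of several tumours. MEIS1 and PBX3 are single genes outside the clusters. Silent HOX chromatin is typically held by Polycomb proteins and active HOX chromatin is opened by MLL (KMT2A) complexes.

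The clusters also encode microRNAs, so the values of the HOX bins cover them as well. RefSeq (GRCh38.p14) lists 11 protein-coding HOX genes in HOXA, 10 in HOXB, 9 in HOXC and 9 in HOXD. The 3 mature microRNAs below are shown because they lie between or within HOX genes of 3 of the clusters and are read 5′ to 3′ with the seed, bases 2 to 8, in capitals. MIR196B lies between HOXA9 and HOXA10, MIR196A1 between HOXB9 and HOXB13, MIR196A2 between HOXC9 and HOXC10, and MIR10A within HOXB3.
hsa-miR-196b-5p: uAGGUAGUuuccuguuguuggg
hsa-miR-196a-5p: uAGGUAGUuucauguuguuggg
hsa-miR-10a-5p: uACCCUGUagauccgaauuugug
The miR-196 sequences of HOXA, HOXB and HOXC share one seed and miR-10a has another. Between miR-196b and miR-196a there is 1 substitution, C12A, counted from the 5′ end with the base of miR-196b first. Both MIR196A genes give the same mature sequence. No microRNA level was measured in these data.

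Coverage of the loci stayed close to that of untreated cells in both treatments. Coverage is the number of contacts of a bin per 1000000 contacts of its matrix (CPM), and it rises with copy number and with the ease of cutting and ligating the chromatin. None of the 7 bins passed a log2 ratio of 0.25 in either direction. Over all kept bins 3.27% were above and 8.37% below that limit in ATRA, and 0.444% were above and 0.337% below it in TPA. The median log2 ratio of all kept bins was 0.08 in ATRA and 0.029 in TPA. Flanking bins were less even, since 11 of the 67 bins of the windows were below the limit in ATRA and 1 in TPA.

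HOXA had 4579 contacts in ATRA, 5163 contacts in TPA and 5324 contacts in untreated cells. In CPM these were 475 (462 to 489) in ATRA, 495 (482 to 509) in TPA and 501 (488 to 515) in untreated cells. The intervals of TPA and untreated cells overlap, and ATRA was the lowest, with a log2 ratio of -0.076 (-0.13 to -0.018). HOXB had 492 CPM (478 to 506) in ATRA, 504 CPM (491 to 518) in TPA and 526 CPM (513 to 540.2) in untreated cells, and ATRA lay below untreated cells while the TPA interval overlaps both. The log2 ratio of HOXB was -0.097 (-0.15 to -0.041) in ATRA and -0.062 (-0.12 to -0.0073) in TPA, with both intervals under 0. HOXC showed the widest spread of the HOX bins. It had 413 CPM (400.0 to 426) in ATRA, 442 CPM (429.7 to 455) in TPA and 488 CPM (475 to 501) in untreated cells, 3 levels whose intervals do not overlap. Its log2 ratio to untreated cells was -0.24 (-0.30 to -0.18) in ATRA, just inside the limit, and -0.14 (-0.20 to -0.084) in TPA, lower than in all but 8.77% and 6.66% of kept bins.

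The first HOXD bin had 353 CPM in ATRA, 340.3 CPM in TPA and 346 CPM in untreated cells, and all 3 intervals overlap. The second had 419 CPM in ATRA, 388 CPM in TPA and 382 CPM in untreated cells, with ATRA above the other two. MEIS1, the cofactor that leukaemic HOXA9 acts with, went the other way from HOXC. It had 365 CPM (353 to 378) in ATRA, 329 CPM (318 to 339.9) in TPA and 314 CPM (304 to 325) in untreated cells. The log2 ratio of MEIS1 was 0.22 (0.15 to 0.29) in ATRA, higher than in 92.9% of kept bins, and 0.065 (-0.0045 to 0.13) in TPA, where the interval includes 0. PBX3 had 418 CPM in ATRA, 430.1 CPM in TPA and 443 CPM in untreated cells, and its log2 ratio in ATRA was -0.085 (-0.15 to -0.024).

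HOXA, HOXB, HOXC and PBX3 lay in the A compartment in all 3 matrices, MEIS1 lay in the B compartment, and the HOXD bins sat at a border between A and B. The A compartment is the gene-rich, open part of the genome and the B compartment the gene-poor, closed part, and a chromosome's pattern of long-range contacts separates them. The compartment score is the leading eigenvector of the balanced and distance-corrected contacts of a chromosome, in SD of that chromosome, with positive values for A. It carries no counting interval here, and a bin was counted as changed where it differed from untreated cells by more than 0.5 SD. In ATRA 1 of the 7 bins was higher past that limit (HOXA) and 1 lower (PBX3), against 10.4% and 12.0% of kept bins. In TPA 0 of 7 were higher and 3 lower (both HOXD bins and PBX3), against 16.6% and 18.0% of kept bins. Both ATRA counts are near the background, and 3 of 7 in TPA are 2 loci, since the HOXD bins are neighbours.

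HOXA scored 1.89 in ATRA, 1.07 in TPA and 1.32 in untreated cells. The ATRA value was the highest of the window and above 96.3% of kept bins. Untreated cells had positive scores in all 11 bins of the HOXA window, with a peak of 1.78 at 26.0 Mb. In ATRA and TPA only 7 of the 11 were positive in each, as the flanks were lower. The bin at 25.5 Mb scored -0.112 in ATRA, -0.575 in TPA and 0.724 in untreated cells, and the bin at 28.5 Mb scored -0.505 in ATRA, -0.492 in TPA and 0.249 in untreated cells. The median score of the 10 flanking bins was 0.124 in ATRA, 0.122 in TPA and 0.822 in untreated cells. The difference of HOXA between ATRA and untreated cells changed sign without balancing, to -0.991 SD. From contacts between chromosomes the HOXA bin scored 0.705 in ATRA, 0.187 in TPA and -0.14 in untreated cells, so its sign in untreated cells rests on the kind of contact used.

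HOXB scored 1.26 in ATRA, 1.248 in TPA and 0.827 in untreated cells, and its neighbours were higher in the treated matrices too. All 11 bins of its window were positive in ATRA and in TPA, against 8 in untreated cells, and the score was past the limit upward in 6 bins in ATRA and 7 in TPA. The farthest bin downstream, at 49.0 Mb, had the lowest score of the window at 0.0545 in ATRA, 0.124 in TPA and -0.475 in untreated cells. The difference of HOXB, which is within the limit, was -0.103 SD in ATRA and -0.186 in TPA without balancing, and 0.0107 in ATRA and 0.106 in TPA by chromosome arm. HOXC scored 1.72 in ATRA, 1.49 in TPA and 1.46 in untreated cells, above 93.5% of kept bins in ATRA, 89.5% in TPA and 90.5% in untreated cells. Downstream of HOXC, the bins at 55.0 and 55.5 Mb were positive in untreated cells and negative in both treatments. The bin at 55.5 Mb, the lowest of the window, scored -0.519 in ATRA, -0.739 in TPA and 0.128 in untreated cells.

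At HOXD the score became lower along the chromosome through the cluster itself. The first bin scored 0.666 in ATRA, -0.0752 in TPA and 0.895 in untreated cells, and the second -0.254 in ATRA, -0.936 in TPA and 0.0441 in untreated cells. The highest score of the window was 1.58 in ATRA at 174.5 Mb, 1.23 in TPA at 175.0 Mb and 1.47 in untreated cells at 174.5 Mb, and the last bin at 179.5 Mb was negative in all 3. In TPA the first negative bin lay farther upstream, and 5 of the 12 bins of the window were positive, against 8 in ATRA and 8 in untreated cells. The bin at 175.5 Mb scored 0.889 in ATRA, -0.10 in TPA and 1.14 in untreated cells, and 6 of the 12 bins of the window were past the limit downward in TPA, against 0 in ATRA. From contacts between chromosomes the difference of the first HOXD bin was 0.0614 SD in ATRA and -0.306 in TPA, and that of the second 0.095 in ATRA and -0.0995 in TPA, so it was smaller in TPA and of the other sign in ATRA. The ratios below rest on the same contacts of chromosome 2 as the score and restate it in other units. At 2 Mb or more, the first HOXD bin met A bins at 1.39 times and B bins at 0.853 times the level expected at their distance in ATRA. In TPA these ratios were 1.17 and 1.12, and in untreated cells 1.58 and 0.804. The second HOXD bin met A and B bins at 0.97 and 1.01 times in ATRA, 0.826 and 1.29 in TPA, and 0.98 and 0.919 in untreated cells.

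MEIS1 scored -0.983 in ATRA, -1.17 in TPA and -0.858 in untreated cells, with no difference from untreated cells past the limit. It lay in a B segment of 4 bins, from 66.0 to 68.0 Mb, between A bins on both sides, and 7 of 11 bins were positive in each matrix. The highest score of the window, at 69 Mb, was 1.97 in ATRA and 2.07 in TPA. In untreated cells it was 1.54 at 65.0 Mb. PBX3 scored 0.119 in ATRA, 0.483 in TPA and 1.06 in untreated cells, but several of its flanks differed in the other direction. Within the 11 bins, the score was past the limit upward in 3 and downward in 2 in ATRA, and upward in 6 and downward in 1 in TPA. The score of chromosome 9 was the least alike between matrices of the 5 chromosomes concerned, with a correlation to untreated cells over its 219 kept bins of 0.887 in ATRA and 0.658 in TPA. Without balancing PBX3 scored 0.568 in ATRA, -0.308 in TPA and 0.902 in untreated cells. From contacts between chromosomes, the difference of PBX3 had the opposite sign, at 0.213 SD in ATRA and 0.246 SD in TPA.

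**Figure D1:**
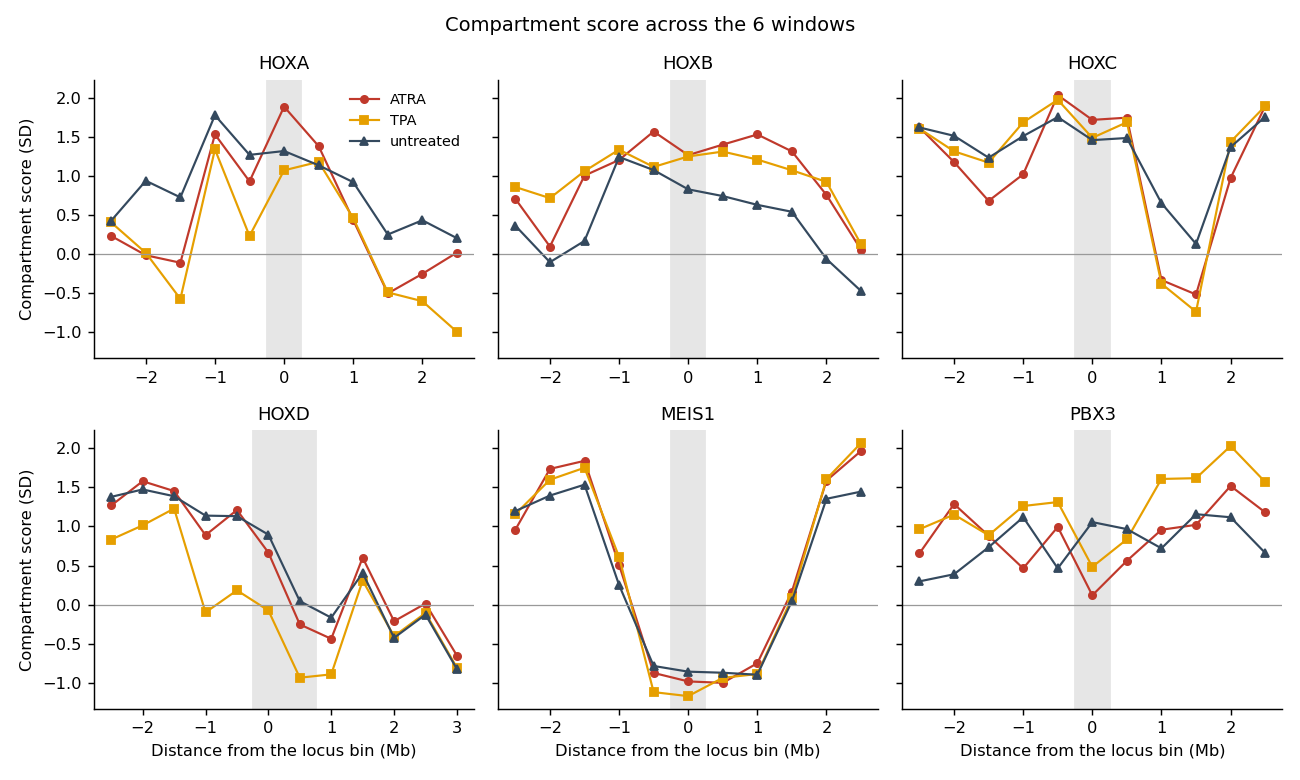
Compartment score in SD of the chromosome (y axis) of each bin of the 6 windows against the distance from the locus bin in Mb (x axis, with HOXD measured from its first bin), for ATRA (circles), TPA (squares) and untreated cells (triangles); the grey band marks the locus. HOXA is the highest bin of its window in ATRA, MEIS1 lies in a negative trough in all 3, and the TPA line at HOXD drops below the others upstream of and within the cluster.

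The share of contacts with A bins is the percentage of a bin's contacts with other chromosomes that fall on bins of positive score in the summed matrix, and 2 percentage points was taken as the limit. In ATRA 0 of the 7 bins were higher past it and 3 lower (HOXB, HOXC and the first HOXD bin), against 2.98% and 49.7% of kept bins. In TPA 0 were higher and 3 lower (HOXC and both HOXD bins), against 19.8% and 25.4%. The median difference over all kept bins was -1.98 points in ATRA and -0.0431 in TPA, so a lower share was the common direction in ATRA and 3 of 7 is near its background.

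HOXC had a lower share with A bins in both treatments. The share at HOXC was 53.6% (51.6 to 55.7) in ATRA, 55.0% (53.1 to 56.8) in TPA and 57.8% (56.0 to 59.6) in untreated cells, a difference of -4.17 (-6.87 to -1.47) points in ATRA and -2.85 (-5.44 to -0.26) in TPA, with normal-approximation limits. HOXB stood at 55.0% in ATRA, 58.1% in TPA and 58.3% in untreated cells, and its difference was -3.25 (-5.66 to -0.835) points in ATRA and -0.231 (-2.59 to 2.12) in TPA. The HOXC differences were lower than in all but 19.6% of kept bins in ATRA and 17.6% in TPA, and that of HOXB in ATRA than in all but 30.8%. The ATRA intervals of HOXB and HOXC include the median difference of all kept bins, -1.98 points. Both clusters were among the bins with the most A contacts, HOXB above 93.9% and HOXC above 91.8% of kept bins in ATRA. HOXA, with 49.9% in ATRA, 49.5% in TPA and 48.7% in untreated cells, and PBX3, with 49.3% in ATRA, 49.4% in TPA and 49.3% in untreated cells, differed from untreated cells by less than the counting error in both treatments.

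The HOXD bins and MEIS1 had the lowest shares of the set. The first HOXD bin had 44.5% in ATRA, 43.7% in TPA and 47.3% in untreated cells, with a difference of -3.66 (-6.72 to -0.605) points in TPA, lower than in all but 12.0% of kept bins. The second had 42.5% in ATRA, 42.0% in TPA and 44.4% in untreated cells, and both of its differences include 0. MEIS1 had 42.7% in ATRA, 40.2% in TPA and 42.0% in untreated cells, and in TPA it was below all but 3.94% of kept bins.

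HOXA had nearly as many short-range contacts in ATRA as in untreated cells, while most of the genome had fewer. Short-range contacts are those of a bin with bins 0.5 to 1.5 Mb away, in CPM. Over all kept bins the median ratio to untreated cells was 0.66 in ATRA and 0.731 in TPA, and values below are to be read against those. At the limit of 2/3 of the untreated level, 3 of the 7 bins were lower in ATRA (HOXC, the second HOXD bin and MEIS1), against 53.1% of kept bins. In TPA 2 of 7 were lower (HOXC and MEIS1), against 25.3%. Neither count is far from the background.

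HOXA had 632 short-range contacts in ATRA, 621 short-range contacts in TPA and 721 short-range contacts in untreated cells, which in CPM is 65.6 (60.6 to 70.9) in ATRA, 59.6 (55.0 to 64.5) in TPA and 67.8 (63.0 to 73.0) in untreated cells. The intervals of the 3 HOXA levels overlap. The ratio of HOXA to untreated cells was 0.967 (0.868 to 1.08) in ATRA, above 99.0% of kept bins, and 0.878 (0.788 to 0.979) in TPA, above 89.0% and with an interval under 1. The HOXA bin was the highest of its 11-bin window in every matrix. Its flanks were lower in ATRA, with a median over the window of 0.669 times the untreated level and a minimum of 0.61. Contacts of the HOXA bin with the next bin downstream numbered 162 in ATRA, 149 in TPA and 182 in untreated cells, and with the next bin upstream 170 in ATRA, 145 in TPA and 178 in untreated cells.

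HOXB had the most short-range contacts of the 7 bins, 71.7 CPM (66.5 to 77.3) in ATRA, 73.9 CPM (68.7 to 79.3) in TPA and 99.9 CPM (94.0 to 106) in untreated cells, and it too was the highest of its window in every matrix. Its ratio of 0.718 (0.651 to 0.791) in ATRA and 0.739 (0.673 to 0.812) in TPA was above 71.8% and 53.2% of kept bins. HOXC had 49.9 CPM (45.6 to 54.6) in ATRA, 52.5 CPM (48.2 to 57.1) in TPA and 82.0 CPM (76.6 to 87.6) in untreated cells, with overlapping intervals in ATRA and TPA, both under untreated cells. The HOXC ratio was 0.609 (0.544 to 0.682) in ATRA and 0.64 (0.574 to 0.713) in TPA. Among the 11 bins of its window the ratio ran down to 0.508 in ATRA and 0.473 in TPA.

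The 2 HOXD bins differed in which treatment was lower. The first had 31.2 CPM in ATRA, 27.6 CPM in TPA and 40.5 CPM in untreated cells, a ratio of 0.772 (0.664 to 0.897) in ATRA and 0.683 (0.586 to 0.795) in TPA. The second had 20.8 CPM in ATRA, 29.5 CPM in TPA and 35.2 CPM in untreated cells, a ratio of 0.59 (0.494 to 0.702) in ATRA and 0.837 (0.717 to 0.976) in TPA. MEIS1 had the lowest levels of the 7 bins, 17.2 CPM (14.7 to 20.1) in ATRA, 18.9 CPM (16.4 to 21.7) in TPA and 31.1 CPM (27.9 to 34.7) in untreated cells. Its ratio of 0.553 (0.456 to 0.669) in ATRA and 0.607 (0.506 to 0.726) in TPA was the lowest of the 7 bins in both treatments. PBX3 had 48.5 CPM in ATRA, 50.4 CPM in TPA and 60.7 CPM in untreated cells and ratios of 0.799 (0.708 to 0.901) in ATRA and 0.83 (0.738 to 0.933) in TPA, both above the median of all bins.

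**Figure D2:**
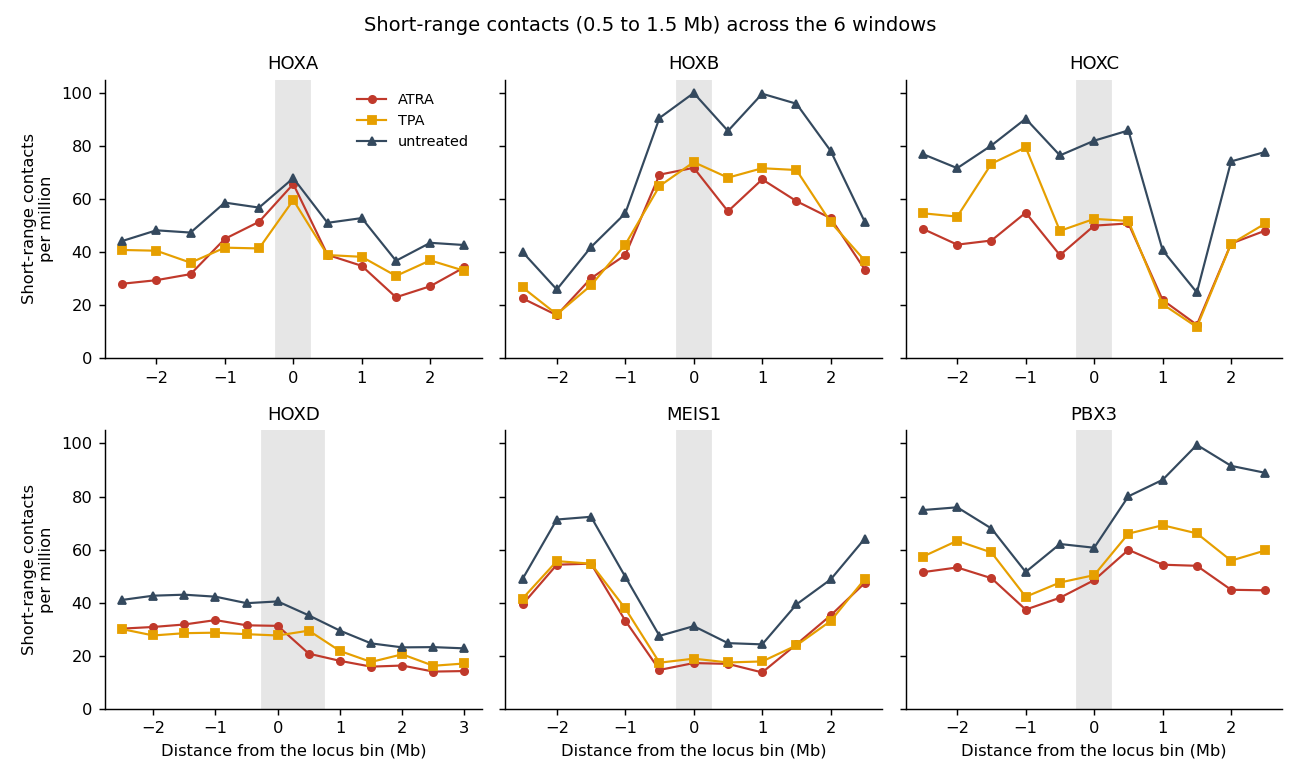
Contacts of each bin with bins 0.5 to 1.5 Mb away in CPM (y axis) against the distance from the locus bin in Mb (x axis), for ATRA (circles), TPA (squares) and untreated cells (triangles); the grey band marks the locus. Untreated cells are highest in all 67 bins, and at the HOXA bin the 3 matrices lie between 59.6 and 67.8 CPM.

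**Figure D3:**
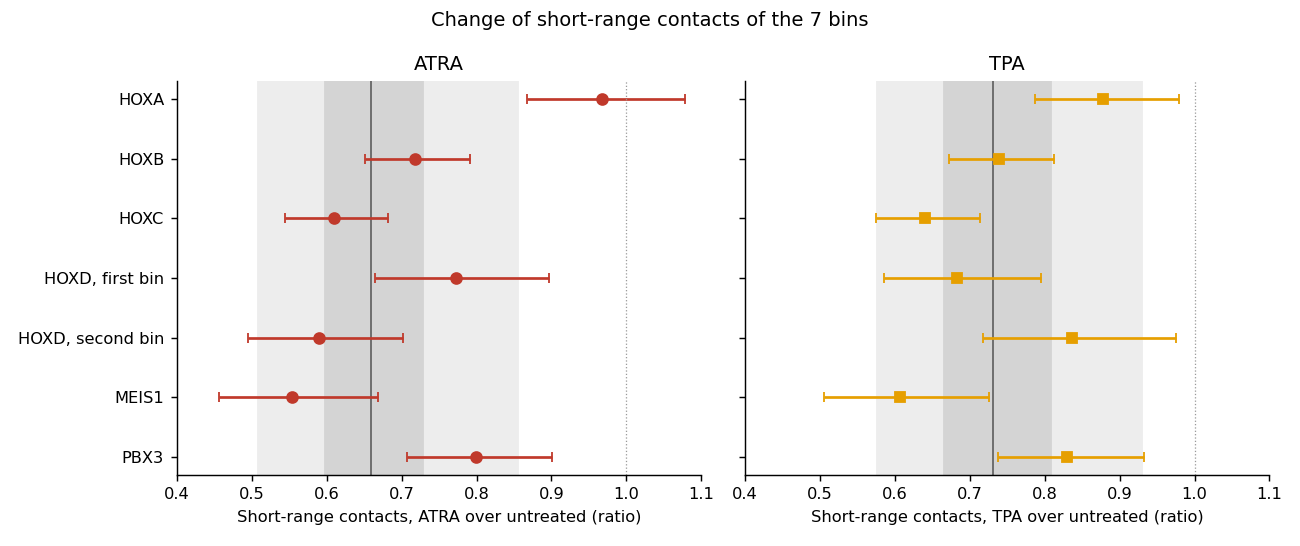
Ratio of short-range contacts to untreated cells (x axis) of each of the 7 bins (rows) in ATRA (left) and TPA (right), with exact 95% counting limits as bars. Dark grey spans the middle 50% and light grey 5% to 95% of all kept bins, the solid line is their median and the dotted line marks a ratio of 1; HOXA in ATRA, at 0.967, lies to the right of both bands.

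Over whole windows HOXC was low and HOXA high in ATRA. Contacts between different bins of the HOXC window were 0.593 times the untreated level in ATRA (0.563 to 0.624). This was above only 5.33% of 469 windows of 11 bins that tile the genome, whose median was 0.693. Those of the HOXA window were 0.778 times (0.736 to 0.822), above 88.9%. HOXB, HOXD, MEIS1 and PBX3 stood at 0.703, 0.742, 0.695 and 0.667 times, between the 34.5 and 77.4 percentiles. The HOXD window, of 12 bins, was set against the same windows of 11 bins. In TPA the 6 windows ranged from 0.714 times at HOXC to 0.833 at HOXA, around a median of 0.786.

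Contacts with other chromosomes made up a larger share in ATRA at 5 of the 7 bins (HOXB, HOXC, both HOXD bins and MEIS1), by more than 5 percentage points, against 76.2% of kept bins. In TPA it was 2 of 7 (HOXB and HOXC), against 11.9%. The ATRA count is near its background. The median difference over all kept bins was 6.5 points in ATRA and 1.89 in TPA. Short-range contacts were lower in both treated matrices as a whole, and their part in the results of single loci was not tested.

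HOXA changed least in ATRA, with 61.1% in ATRA, 59.9% in TPA and 58.1% in untreated cells on other chromosomes. Its difference of 2.95 points was lower than in all but 4.85% of kept bins. HOXB had 66.9% in ATRA, 64.9% in TPA and 59.6% in untreated cells and HOXC 60.4% in ATRA, 60.6% in TPA and 54.8% in untreated cells. For both, the ATRA and TPA intervals overlap and lie above untreated cells, and their TPA differences of 5.34 and 5.78 points exceeded 90.2% and 92.5% of kept bins. The first HOXD bin had 63.0% in ATRA, 56.9% in TPA and 55.9% in untreated cells, and the second 68.6% in ATRA, 59.8% in TPA and 61.4% in untreated cells. MEIS1 had 68.0% in ATRA, 60.5% in TPA and 60.8% in untreated cells, so for HOXD and MEIS1 the ATRA matrix was above the other two. PBX3, at 72.0% in ATRA, 71.0% in TPA and 68.1% in untreated cells, had the highest share of the 7 bins in every matrix.

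On their own chromosome the loci of chromosome 2 had the largest share of distant contacts and HOXB and PBX3 the smallest. Of contacts with other bins of the chromosome, MEIS1 had 68.9% (66.0 to 71.7) in ATRA, 62.8% (60.04 to 65.5) in TPA and 58.1% (55.2 to 60.9) in untreated cells at 10 Mb or more, against medians over all kept bins of 49.9 in ATRA, 48.7 in TPA and 43.8 in untreated cells. The difference of MEIS1 in ATRA, 10.8 points, exceeded 88.5% of kept bins. The 2 HOXD bins had 60.9% in ATRA, 63.1% in TPA and 58.3% in untreated cells and 66.3% in ATRA, 66.3% in TPA and 60.7% in untreated cells, at or above the 86.4 percentile throughout. HOXA had 41.5% in ATRA, 44.1% in TPA and 42.4% in untreated cells, and HOXC 41.0% in ATRA, 41.2% in TPA and 34.8% in untreated cells. HOXB had 25.6% in ATRA, 27.2% in TPA and 25.2% in untreated cells and PBX3 26.0% in ATRA, 25.7% in TPA and 24.0% in untreated cells, below all but 5.31% and 5.52% of kept bins in ATRA. Chromosome length and the place of a locus along it bound this share, and they differ between the loci.

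Both HOXD bins had their strongest partners in a segment of the other arm of chromosome 2. Partners were ranked among bins of the same chromosome outside the window with at least 20 contacts in the 3 matrices together, by contacts over the level expected at their distance. The 4 highest partners of the second HOXD bin and the 5 highest of the first lay between 39.0 and 41.5 Mb, 135.5 to 137.5 Mb away. The pair with the highest value, the second HOXD bin and the bin at 41.0 Mb, held 8 contacts in ATRA, 18 contacts in TPA and 19 in untreated cells, and the ratio to expectation was 5.62 in ATRA, 10.9 in TPA and 11.9 in untreated cells. Summed over the 5 partner bins, the first HOXD bin had 47 contacts in ATRA, 55 in TPA and 55 in untreated cells, and the second had 46 in ATRA, 54 in TPA and 74 in untreated cells. Without them the far share of the first bin was 59.3% in ATRA, 61.6% in TPA and 56.6% in untreated cells, close to the share with them. That of the second was 65.0% in ATRA, 65.0% in TPA and 58.5% in untreated cells.

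Contact with that segment was above expectation in all 9 bins of the HOXD window before an edge 1 Mb beyond the cluster bins, and below it in the next bin, in all 3 matrices. The ratio of contacts with the segment to expectation was 4.26 in ATRA, 4.19 in TPA and 3.49 in untreated cells at 175.0 Mb. It was 5.71 in ATRA, 5.89 in TPA and 6.1 in untreated cells at the first HOXD bin and 4.81 in ATRA, 5.43 in TPA and 7.5 in untreated cells at the second. At 178.0 Mb, the last bin before the edge, the values were 10.3 in ATRA, 7.11 in TPA and 10.2 in untreated cells. In the next bin, at 178.5 Mb, they were 0.431 in ATRA, 0.625 in TPA and 0.618 in untreated cells. The 9 bins of the window before the edge held 361 contacts with the segment in ATRA, 417 in TPA and 454 in untreated cells, a ratio to expectation of 5.03 (4.53 to 5.58) in ATRA, 5.12 (4.64 to 5.63) in TPA and 5.97 (5.43 to 6.54) in untreated cells. The 3 bins after it held 16 in ATRA, 18 in TPA and 20 in untreated cells, with ratios of 0.769 in ATRA, 0.75 in TPA and 0.926 in untreated cells, and each interval includes 1. The step was present in all 3 matrices and is far wider than counting error. HOXD and MEIS1, which lie on the same chromosome 110 Mb apart, showed no such step, and whether chromosome 2 of these cells is joined as on hg19 was not tested. The segment was picked for its excess with the HOXD bins and the edge was chosen after the values were seen. The levels and the step are therefore a description.

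**Figure D4:**
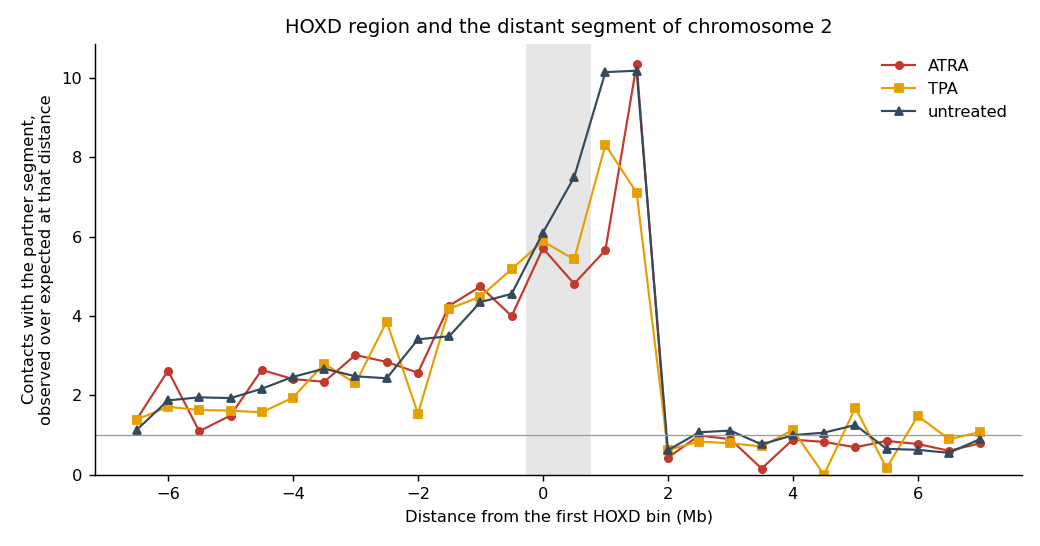
Contacts with the distant segment of chromosome 2, observed over expected at that distance (y axis), of each bin against its distance from the first HOXD bin in Mb (x axis), for ATRA (circles), TPA (squares) and untreated cells (triangles); the grey band marks the HOXD bins and the horizontal line a value of 1. In all 3 matrices the values lie above 1 in every bin of the HOXD window before the edge and below 1 at a distance of 2 Mb.

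The 5 best partners of each of the other loci held 20 to 42 contacts in the 3 matrices together. HOXA met 5.5 to 6.0 Mb of chromosome 7 most, with 13 contacts in ATRA, 5 contacts in TPA and 14 in untreated cells, and then the 2 bins from 44.0 to 45.0 Mb. HOXB met 3 bins from 72.5 to 74.0 Mb of chromosome 17 most, where the best, at 73.0 Mb, held 7 contacts in ATRA, 10 contacts in TPA and 7 in untreated cells. HOXC met 8.0 to 8.5 Mb of chromosome 12, with 4 contacts in ATRA, 6 contacts in TPA and 11 in untreated cells, and 121.5 to 122.0 Mb, with 7 contacts in ATRA, 4 contacts in TPA and 10 in untreated cells. All 5 best partners of HOXA and of HOXC had positive scores in the summed matrix, and so had those of HOXB and PBX3, while all 5 of MEIS1 were negative. The score and the ranking of partners rest on the same contacts of each chromosome, so these signs are no separate evidence of compartment. MEIS1 met 19 to 19.5 Mb of chromosome 2 most, with 9 contacts in ATRA, 4 contacts in TPA and 7 in untreated cells. The best partner of PBX3, at 138.0 Mb of chromosome 9, reached 1.48 times expectation in the summed matrix. At such counts the order of the partners within a locus is uncertain.

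On other chromosomes the HOXB window had the strongest partners of the 6. Bins were taken as strong where they had at least 20 contacts with a window in the 3 matrices together and at least 3 times the number expected from coverage. For HOXB, 25 bins passed, of which 15 lay in the first 12.5 Mb of chromosome 16, 6 in the first 37.5 Mb of chromosome 5 and 4 between 74.0 and 104.5 Mb of chromosome 10. The window held 432 contacts with the 15 bins of chromosome 16 in ATRA, 522 in TPA and 533 in untreated cells. The ratio to expectation was 5.28 (4.79 to 5.8) in ATRA, 4.47 (4.1 to 4.88) in TPA and 4.36 (3.99 to 4.74) in untreated cells. All 11 bins of the window took part, between 3.04 and 7.28 times, so the excess was not limited to the bin of HOXB4 and HOXB7. Whether chromosomes 5, 10, 14, 16 and 17 of these cells are joined as on hg19 was not tested. With the 6 bins of chromosome 5 the ratio was 3.37 (2.77 to 4.06) in ATRA, 2.3 (1.86 to 2.81) in TPA and 4.13 (3.55 to 4.79) in untreated cells, and TPA lay below untreated cells beyond counting error. Because these bins were picked for their excess in the summed matrix, their levels are a description.

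For PBX3, 5 bins passed, all between 50.0 and 56.0 Mb of chromosome 14, with 111 contacts in ATRA, 115 in TPA and 143 in untreated cells, and ratios to expectation of 3.4 in ATRA, 3.17 in TPA and 3.61 in untreated cells. HOXC had 1 such bin, on chromosome 16, and HOXA, HOXD and MEIS1 had 0. Over whole chromosomes the windows differed in their partners. HOXB, HOXC and PBX3 met the small chromosomes 19, 20 and 22 at ratios above 1 in all 3 matrices. The interval included 1 for PBX3 with chromosome 19 in ATRA, at 1.07 (0.99 to 1.16). It also did for HOXC with chromosome 20 in TPA, at 1.06 (0.989 to 1.13). With chromosome 22 the ratio to expectation was 1.53 in ATRA, 1.4 in TPA and 1.37 in untreated cells for HOXB. For PBX3 it was 1.59 in ATRA, 1.47 in TPA and 1.4 in untreated cells, and for HOXC 1.24 in ATRA, 1.198 in TPA and 1.36 in untreated cells. With chromosome 19 the ratio of HOXC was 1.17 in ATRA, 1.42 in TPA and 1.5 in untreated cells, with ATRA the lowest. HOXA and HOXD met chromosome 22 at ratios below 1. The ratio was 0.784 in ATRA, 0.907 in TPA and 0.734 in untreated cells for HOXD. For HOXA it was 0.949 (0.861 to 1.04) in ATRA, where the interval includes 1, 0.873 in TPA and 0.80 in untreated cells. MEIS1 was low with chromosome 16, with a ratio of 0.877 in ATRA, 0.814 in TPA and 0.814 in untreated cells. HOXA, HOXD and MEIS1 were each slightly above 1 with chromosome 4 in all 3 matrices, at 1.03 to 1.08 times.

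Between the loci themselves, HOXB and PBX3 were the pair with the most contacts over the expectation from coverage in every matrix. The 6 windows give 14 pairs on different chromosomes, each compared with the number expected from the coverage of its bins, and pairs at least 25% above it and pairs at 0.8 times it or less were counted. In ATRA 1 of 14 was high and 0 low, against 8.29% and 14.0% of the 104076 pairs of windows of 11 bins across the genome. The HOXD window has 12 bins. In TPA 3 were high and 0 low, against 9.37% and 15.4%. In untreated cells 3 were high and 1 low, against 11.4% and 18.1%. The median of the 14 pairs was 1.004 in ATRA, 1.048 in TPA and 0.931 in untreated cells, and over all pairs it was 0.98 in ATRA, 0.977 in TPA and 0.978 in untreated cells.

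HOXB and PBX3 held 99 contacts in ATRA at 1.48 times the expected number (1.199 to 1.8), 129 contacts in TPA at 1.5 times the expected number (1.26 to 1.79) and 133 in untreated cells at 1.47 times (1.23 to 1.74). These 3 values overlap, and all lie above the 95th percentile of all pairs. With the expectation taken within the pair of chromosomes they were 1.18 in ATRA, 1.13 in TPA and 1.22 in untreated cells. That expectation takes in the contacts of each window with the whole other chromosome. By it HOXB and PBX3 was the highest pair in untreated cells only. HOXA and HOXB was the highest in ATRA, at 1.21, and HOXB and MEIS1 in TPA, at 1.37. The PBX3 window met chromosome 17 at 1.27 times expectation in ATRA, 1.26 in TPA and 1.27 in untreated cells. The HOXB window met chromosome 9 at 0.998 times in ATRA, 1.07 in TPA and 0.96 in untreated cells. HOXB and HOXC held 64 contacts in ATRA at 1.11 times the expected number (0.852 to 1.41), 94 contacts in TPA at 1.28 times the expected number (1.04 to 1.57) and 101 in untreated cells at 1.28 times (1.045 to 1.56). HOXC and PBX3 held 75 contacts in ATRA at 1.150 times the expected number (0.905 to 1.44), 101 contacts in TPA at 1.23 times the expected number (1.002 to 1.49) and 117 in untreated cells at 1.33 times (1.1 to 1.6). In these 2 pairs ATRA was the lowest, though the intervals overlap.

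HOXB and MEIS1 was the pair that differed most between matrices. It held 71 contacts in ATRA at 1.16 times the expected number (0.904 to 1.46), 94 contacts in TPA at 1.43 times the expected number (1.154 to 1.75) and 58 in untreated cells at 0.824 times (0.625 to 1.06). The TPA and untreated intervals do not overlap, and ATRA lay between them. This is 1 of 14 pairs in 2 treatments, with no replicate. HOXA was not 25% above expectation with any other locus. HOXA and PBX3 held 67 contacts in ATRA at 0.888 times the expected number (0.689 to 1.13), 75 contacts in TPA at 0.921 times the expected number (0.724 to 1.154) and 64 in untreated cells at 0.744 times (0.573 to 0.95), and HOXA and MEIS1 held 67 contacts in ATRA at 0.971 times the expected number (0.753 to 1.23), 59 contacts in TPA at 0.943 times the expected number (0.718 to 1.22) and 69 in untreated cells at 1.03 times (0.803 to 1.31). The remaining 8 pairs lay between 0.802 and 1.11 times expectation. Between single locus bins the counts were 0 to 3 for each pair, too few to compare. HOXD and MEIS1, on one chromosome, held 261 contacts between their windows in ATRA, 313 in TPA and 252 in untreated cells. The ratio to the level at that distance was 1.61 (1.42 to 1.81) in ATRA, 1.75 (1.56 to 1.95) in TPA and 1.5 (1.32 to 1.7) in untreated cells, and the bins on both sides of the HOXD edge contributed, at 1.62 and 1.56 times in ATRA. Other pairs of windows on one chromosome were not measured, so how common such a ratio is at that distance was not tested.

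**Figure D5:**
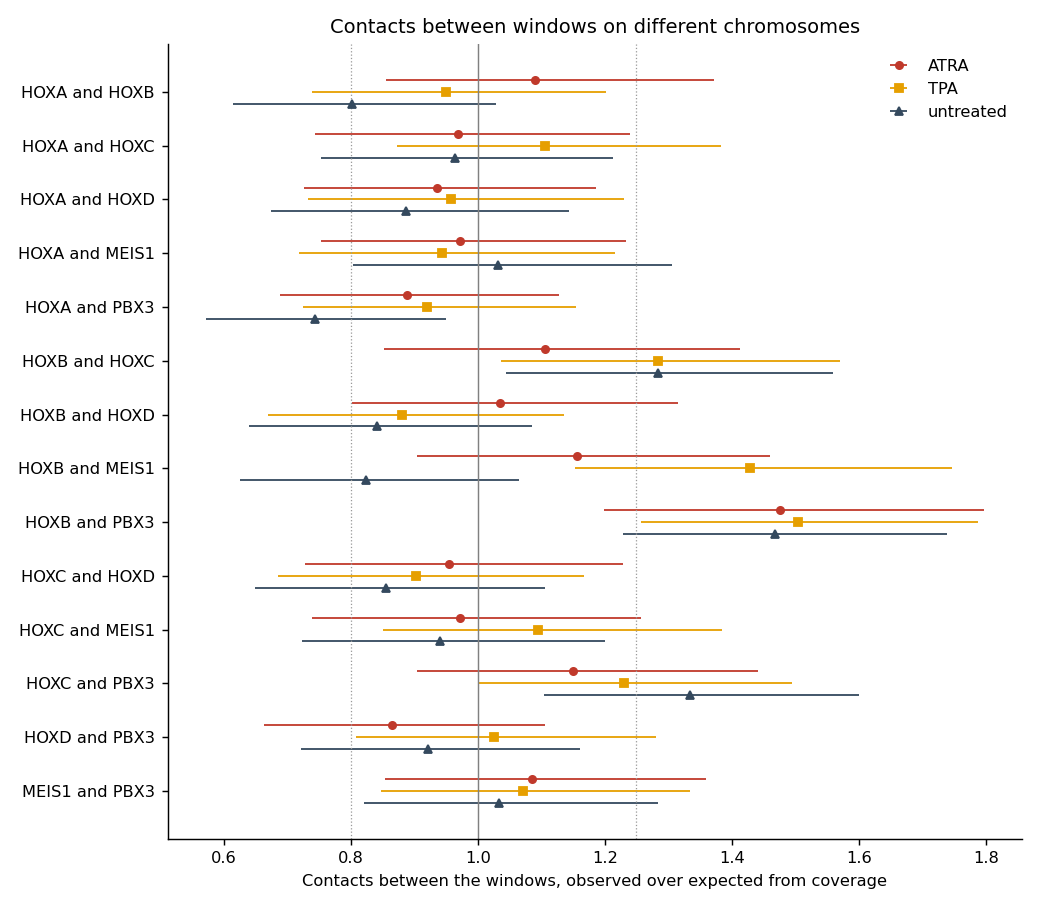
Contacts between the windows of 2 loci on different chromosomes, observed over expected from coverage (x axis), for the 14 pairs (rows) in ATRA (circles), TPA (squares) and untreated cells (triangles), with exact 95% counting limits. The solid line marks 1 and the dotted lines 0.8 and 25% above 1; HOXB and PBX3 lies right of that line in all 3 matrices, and HOXB and MEIS1 does so in TPA.

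The loci also differed in how contacts were divided between their 2 sides. Of contacts with the 5 bins on either side, the first HOXD bin had 247 upstream and 105 downstream in ATRA, 200 and 150 in TPA, and 315 and 175 in untreated cells. The downstream share was 29.8% (25.1 to 34.9) in ATRA, 42.9% (37.6 to 48.2) in TPA and 35.7% (31.5 to 40.1) in untreated cells, where the lowest 5% of bins lie under 33.3% in ATRA, 33.5% in TPA and 36.3% in untreated cells. The first HOXD bin leaned upstream in all 3, past that level in ATRA and untreated cells but not in TPA, and the ATRA and TPA intervals do not overlap. With its neighbour upstream it had 110 contacts in ATRA, 86 in TPA and 139 in untreated cells, and with the second HOXD bin 38 in ATRA, 52 in TPA and 82 in untreated cells. The second HOXD bin was even, with 49.2% in ATRA, 46.7% in TPA and 47.8% in untreated cells downstream.

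HOXB leaned upstream, with 42.7% in ATRA, 44.5% in TPA and 46.9% in untreated cells downstream, and HOXC downstream, with 58.4% (54.2 to 62.5) in ATRA, 53.1% (49.2 to 57.0) in TPA and 55.2% (52.1 to 58.3) in untreated cells, where the TPA interval includes 50%. HOXA, MEIS1 and PBX3 lay between 45.8% (42.0 to 49.6), at HOXA in ATRA, and 57.5% (52.3 to 62.5), at MEIS1 in untreated cells. The middle 50% of bins ran from 43.2% to 56.8% in ATRA and from 43.3% to 56.9% in TPA. In untreated cells it ran from 44.6% to 55.8%. HOXB and HOXC were outside this range in ATRA only, and MEIS1 was outside it in untreated cells only. In the balanced matrix the downstream share of HOXC in ATRA was 3.39 points from 50%, against 8.38 without balancing. For HOXB in ATRA these values were -9.59 and -7.35 points. Contacts that pass over a bin, between the 5 bins on one side and the 5 on the other, are few where a border between domains lies in it. PBX3 was spanned by 715 contacts in ATRA, 858 contacts in TPA and 1022 contacts in untreated cells, and relative to the mean of chromosome 9 this was 2.1 in ATRA, 2.0 in TPA and 2.26 in untreated cells. HOXA was spanned by 546 contacts in ATRA, 557 contacts in TPA and 597 contacts in untreated cells, and the ratio to untreated cells was 1.01 (0.897 to 1.14) in ATRA, above 93.8% of bins. MEIS1 was spanned by 398 contacts in ATRA, 465 contacts in TPA and 671 contacts in untreated cells, with ratios of 0.654 (0.577 to 0.742) in ATRA and 0.707 (0.626 to 0.796) in TPA. The TPA value of MEIS1 was lower than in all but 5.6% of bins. The second HOXD bin had the fewest spanning contacts relative to its chromosome, with ratios to the mean of chromosome 2 of 0.828 in ATRA, 0.891 in TPA and 0.786 in untreated cells.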

How the data were processed

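The authors deposited 1 matrix of raw contact counts per condition, in bins of 500 kb on hg19, and merged the libraries of TPA and of untreated cells, per the labels. HOMER 4.7, Bowtie and hg19 stand in the submitters' processing notes, with HiCUP named as the filter of read pairs in the series' design text, and the version of Bowtie is not given in the sources used. Each deposited count between 2 bins was used as given, with counts within a bin, which are entered from both ends, halved. Bins of chromosomes Y and M, 120 columns per matrix, were not used. A bin was kept where it reached 0.2 of the median coverage in all 3 matrices, and matrices were balanced over 60 iterations for the compartment score only. Python 3.11.15, numpy 2.4.6, scipy 1.17.1 and pandas 2.3.3 were used, and the scripts were tested on simulated data. All 9 genes are named through their bins. Flanking bins are named where they are the extreme of a window or differ in sign from the locus, and the 5 best partners come from those with at least 20 contacts. The bins follow from the position of the genes, and the genes, lists and limits were chosen with earlier results of these data known. With 1 matrix per condition no test was run, and intervals cover counting error only. Partner genes of the pathway outside the 6 loci were not used here. Alternatives covered scaling, balancing, eigenvectors, distances, windows and limits.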

Additional observations from a re-analysis of the deposited data

How the results depend on the processing

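Of 76 alternative values for counts of bins or pairs, 48 stayed within 1.5 times the main count and 28 did not. Of 252 for single values, 45 had the other sign, of which 7 belong to values past their limit and are given below. For coverage lower in ATRA, scaling to the median bin gave 1 bin and contacts with other chromosomes alone gave 1, against 0. The score count higher in ATRA was 0 without balancing, by chromosome arm and at 1 SD. The count lower in ATRA was 0 by arm, by contacts between chromosomes, at a coverage minimum of 0.5 times the median and at 1 SD. In TPA contacts between chromosomes gave 1 bin higher and 0 lower, and 1 SD gave 0 lower. The score difference became -0.991 SD for HOXA in ATRA without balancing. From contacts between chromosomes it became 0.213 for PBX3 in ATRA and 0.246 in TPA. With the share on chromosome 19 in place of A bins, 0 bins were lower in ATRA and 0 in TPA. In untreated cells that share was 1.70% and 1.32% at the HOXD bins and 1.77% at MEIS1. A fall past 2 points was impossible there, and the highest share was 3.31%, at HOXC. These counts of 0 therefore cannot show whether the result depends on the choice. The first HOXD bin then differed by 0.301 points in ATRA and 0.178 in TPA, and the second by 0.166 in TPA. These values rest on 33 to 43 contacts per matrix. Relative to the median bin, 0 bins had fewer short-range contacts past the limit in ATRA and 0 in TPA. In TPA 0.5 to 5 Mb gave 0 and the share of contacts on the chromosome gave 1. The share on other chromosomes was higher at 1 bin in TPA without contacts within a bin. With locus bins alone, 6 pairs in ATRA, 8 in TPA and 5 in untreated cells were high, and 6 in ATRA, 4 in TPA and 4 in untreated cells were low, at counts of 0 to 3. Within the pair of chromosomes, 0 pairs in ATRA, 1 in TPA and 0 in untreated cells were high. The downstream share of PBX3 in ATRA became -2.84 points from 50% in the balanced matrix. Apart from the construction of each alternative, the cause was not tested. A bins taken from contacts between chromosomes, an alternative chosen after seeing the data, gave 4 bins lower in ATRA and 4 in TPA. No paired analysis was possible because each condition is 1 matrix, and for the same reason no library could be left out.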

Other observations

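Contacts within a bin, which also count toward coverage and the share on other chromosomes, are given here alone. Within its 500 kb HOXA had 221 contacts in ATRA, 226 contacts in TPA and 239 contacts in untreated cells, a CPM ratio of 1.02 (0.846 to 1.23) in ATRA and 0.964 (0.80 to 1.16) in TPA, where the medians of all kept bins were 0.733 in ATRA and 0.852 in TPA. HOXC had 219 in ATRA, 242 in TPA and 387 in untreated cells, with ratios of 0.624 (0.527 to 0.739) in ATRA and 0.638 (0.541 to 0.751) in TPA, the TPA ratio lower than in all but 8.15% of bins. The first HOXD bin had 88 in ATRA, 93 in TPA and 161 in untreated cells, and its TPA ratio of 0.589 (0.451 to 0.765) was lower than in all but 3.61% of bins. The second HOXD bin had 97 in ATRA, 135 in TPA and 139 in untreated cells, and both of its intervals include 1.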
